A study of Mus musculus with 6 samples.

Results

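The 44 genes described here were all the protein-coding collagen genes of the mouse table, chosen by symbol alone (Col, a type number, a and a chain number) from 27884 genes, of which 17402 were protein-coding. Their RNA was measured in the preoptic area (POA) of the hypothalamus of female NuTRAP::Pnoc-Cre mice aged 17 to 18 weeks. NuTRAP is a Cre-dependent reporter that puts EGFP on ribosomes, and Pnoc, the gene of the nociceptin precursor, drives the Cre. Input libraries held the total RNA of the tissue, and IP libraries the RNA that came down with an anti-GFP antibody. There were 3 libraries of each kind, each from a pool of 3 animals, and each IP shares its pool with the Input of the same number. Both groups came from the same mice, so that the tag and the Cre were present in each, and the contrast is between 2 fractions of a tissue and not between genotypes. Because Cre acts permanently, the tag also stays in cells in which the driver was active only earlier.

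Collagens are secreted or membrane-bound proteins in which 3 chains wind around each other. The helix needs a glycine at regular places, so the coding sequence repeats a glycine codon followed by 2 other codons. Fibrillar collagens form the tensile fibres of connective tissue and in the brain are made mainly by fibroblasts of the meninges and vessel walls. Type IV collagen forms the sheet of the basement membrane around brain vessels, and a few collagens, among them the membrane-spanning type XXV chain, are known from neurons.

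The repeat is shown here in 1 coding exon each of both type I fibrillar chains, a basement-membrane chain and a neuronal chain, because the classes described below differ in how long it runs without a break. Each exon is 54 bases long, is read 5′ to 3′ on the coding strand, and has the glycine codons in capitals (GENCODE M39 canonical transcripts, GRCm39).
Col1a1, chr11:94830730-94830783, plus strand: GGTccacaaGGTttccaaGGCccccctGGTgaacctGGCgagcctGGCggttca
Col1a2, chr6:4515481-4515534, plus strand: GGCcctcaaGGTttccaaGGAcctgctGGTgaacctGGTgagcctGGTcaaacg
Col4a1, chr8:11295211-11295264, minus strand: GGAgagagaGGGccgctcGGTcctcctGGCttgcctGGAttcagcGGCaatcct
Col25a1, chr3:130311333-130311386, plus strand: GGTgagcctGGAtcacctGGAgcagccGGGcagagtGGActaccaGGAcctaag
Such an exon encodes 6 glycine-first triplets. In the fibrillar chains the longest unbroken run was between 216 and 344 triplets, with a median of 338. It was between 30 and 66 triplets in the basement-membrane chains, and 40 in Col25a1.

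Total counts ran from 48204567 to 53056642 over the 6 libraries. Pnoc, the driver gene, had 47.7, 43.1 and 41.1 CPM (counts scaled to library size) in IP replicates 1, 2 and 3 against 7.51, 10.98 and 13.2 CPM in Input, a log2 fold change of 2.06 ± 0.22 (SE, adjusted p = 0.000472, edgeR). The summed level of 12 pan-neuronal genes was 12000 to 13920 CPM in IP and 8780 to 10500 CPM in Input, with 6 genes higher and 1 lower in IP. With library totals alone 3 were higher and with upper-quartile factors 4, the lower call was lost with DESeq2, RLE or upper-quartile factors, and without both libraries of replicate 3 edgeR called 0 higher. Over all genes tested, 17.1% were called lower in IP and 12.9% higher. Markers of cells known to make collagen were present at lower sums in IP. Of 9 leptomeningeal and vascular fibroblast markers tested 3 fell (summed level 7.74 to 10.8 against 43.7 to 71.9 CPM, or 5.14 to 7.95 against 18.1 to 36.0 CPM without Pdgfra, which fell and also marks oligodendrocyte precursors), of 8 mural markers 4 fell (10.1 to 11.4 against 46.2 to 59.3 CPM), and of 10 endothelial markers 7 fell. The endothelial sum was 23.2 to 29.3 CPM in IP against 26.1 to 41.8 CPM in Input, and Egfl7 alone held 16.8 to 22.3 CPM in IP against 6.69 to 8.33 CPM in Input and rose by 1.39 on the log2 scale. Igf2 and Tie1, markers of fibroblasts and endothelium, had 0 counts in all 3 IP libraries. They were also low in Input, at 1.5, 0.04 and 1.1 CPM for Igf2 and 1.3, 0.13 and 0.17 CPM for Tie1. Neither had enough counts for a test. The number of pan-neuronal genes called higher went down to 2 without IP replicate 2, IP replicate 3 or Input replicate 3, the endothelial count to 4 without IP replicate 3 or Input replicate 3 and to 5 without Input replicate 1 (each other library left 6 or 7), and the fibroblast count ran from 2 without Input replicate 3 to 5 without Input replicate 2. The part of these cells in the values below was not tested, and in such bulk RNA fewer cells of a type and less RNA per cell cannot be told apart.

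Most collagen genes that could be tested stood lower in IP, and 1 rose. Of the 44 genes 34 had enough counts for a test. The test was edgeR, with p adjusted over all 18640 genes tested and a threshold of 0.05. Of the 34 genes 9 fell, a share not far from the 17.1% of all tested genes, and 1 rose, where 12.9% of all did. The fallers were the fibrillar genes Col1a1, Col1a2, Col11a2 and Col27a1, the basement-membrane genes Col4a1 and Col4a5, the fibril-associated genes Col12a1 and Col9a3, and Col6a2 of the beaded filaments. The gene that rose was Col25a1. The median log2 fold change of the 34 was -1.49, against -0.07 over all genes tested. For 9 of the 34 all 3 Input libraries passed the count filter but not all 3 IP libraries did, and for 1 the reverse held. Entry through 1 group favours a lower level in the other, and the median only describes the tested genes. The 9 that entered through Input were Col2a1, Col5a1, Col11a1, Col11a2, Col6a1, Col6a2, Col6a4, Col6a5 and Col19a1. Of these 2, Col11a2 and Col6a2, are among the 9 that fell. All 3 IP libraries lay below all 3 Input libraries for 15 of the 34 tested collagen genes, where 26.0% of all tested genes did so. They lay above them for 1 of the 34, where 21.7% did. The authors' deposited table calls 13 collagen genes lower, against 13.5% of its genes with a p, and 1 higher, against 10.3%. It calls lower, beside the 9, Col2a1, Col5a2, Col6a1 and Col6a4.

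**Figure D1:**
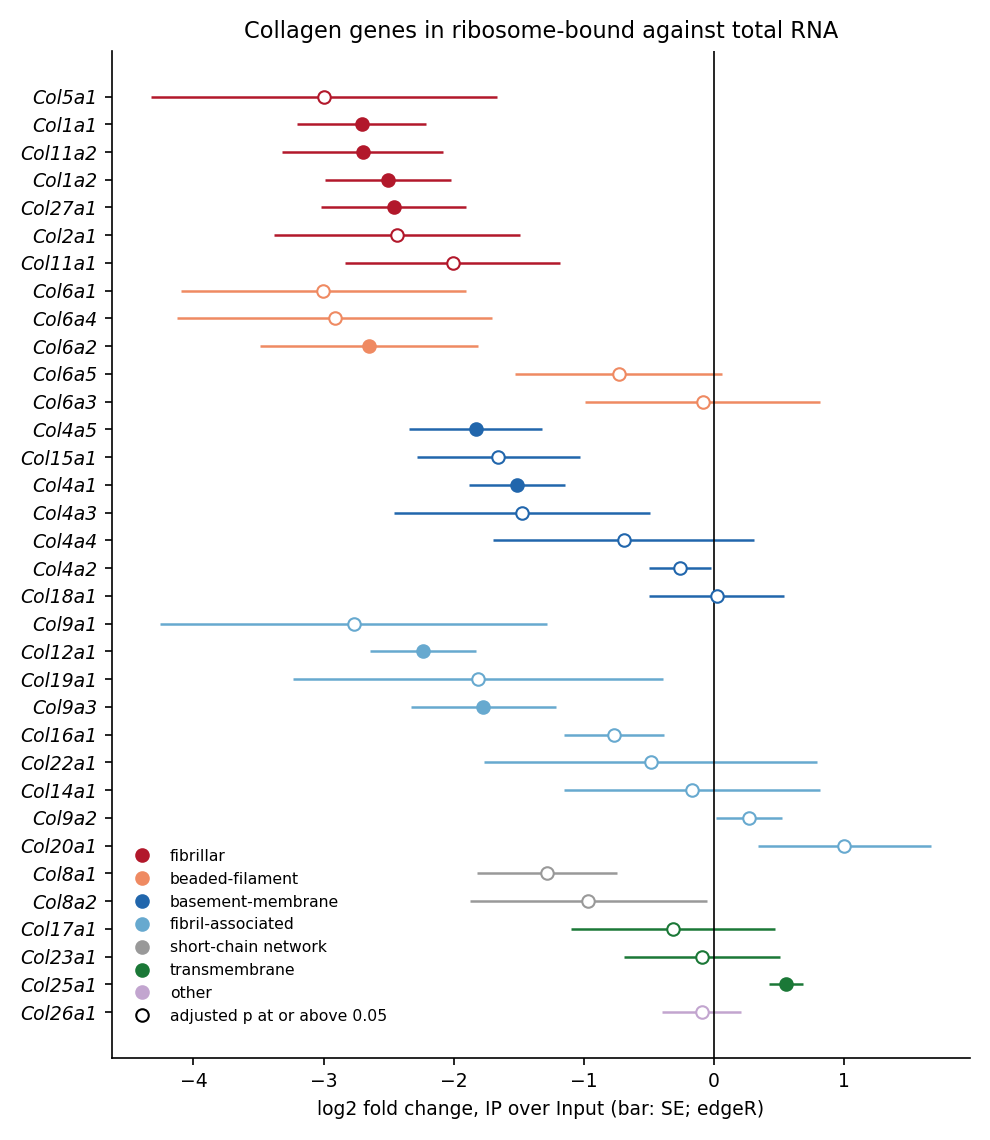
Log2 fold change of the 34 tested collagen genes, IP over Input, grouped and coloured by class, with SE bars; filled points passed at an adjusted p under 0.05. The 7 fibrillar genes lie between -3.00 and -2.01, and Col25a1 is the filled point to the right of 0.

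The count moved with the libraries entered. Leaving out 1 library at a time, between 4 and 9 collagen genes fell. The count was 5 without IP replicate 3 and 4 without Input replicate 3. It was 6 without IP replicate 2, and 9 without IP replicate 1, where Col5a1, Col6a4 and Col9a1 came in for Col4a1, Col4a5 and Col6a2. Without both libraries of replicate 3 Col11a2 alone fell, in a fit that called 742 genes lower in all against 3191 with every library, and Col25a1 did not pass without IP replicate 1 or without both libraries of any 1 pool. Col1a1, Col1a2, Col11a2 and Col12a1 kept their calls without any 1 library. With the replicate as a block 12 fell, the 9 named and Col2a1, Col6a1 and Col6a4, against 19.4% of all genes.

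All 7 tested fibrillar genes, of 11 in the class, stood at a log2 fold change of -2.01 or below. Of the 7, 4 fell, where 17.1% of all tested genes did. Of the untested fibrillar genes, Col3a1 and Col5a2 were lower in IP in each pool, and Col5a3 in 2 pools. Col24a1 went the other way, with 0, 10 and 6 reads in IP against 0, 0 and 1 in Input. Because Col2a1, Col5a1, Col11a1 and Col11a2 passed the count filter in all 3 Input but not all 3 IP libraries, their common direction is a description. Col1a1 and Col1a2 encode the chains of type I collagen, the main fibre of skin, bone and meninges. Col1a1 (ENSMUSG00000001506, chromosome 11, 94827050 to 94843868, plus strand, mm39) had 0.21, 0.48 and 0.64 CPM in IP replicates 1, 2 and 3 against 3.36, 2.35 and 3.07 CPM in Input. The groups were far apart, with the highest IP library below the lowest Input library. It stood at -2.71 ± 0.50 on the log2 scale (SE), 6.54-fold lower in IP (adjusted p = 0.00529, edgeR). Col1a2 (chromosome 6, 4504814 to 4541544) had 1.73, 0.43 and 0.91 CPM in IP against 6.07, 4.87 and 6.55 CPM in Input. It too had every IP library below every Input library, at -2.51 ± 0.48 (SE, adjusted p = 0.00649, edgeR). The counts behind these values were low in IP, between 10 and 32 reads for Col1a1 and between 20 and 81 for Col1a2.

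Col11a2, a chain of the minor fibrillar type XI collagen known from cartilage and the inner ear, had 0.68, 0.74 and 0.14 CPM in IP against 4.44, 3.47 and 2.24 CPM in Input. Its log2 fold change was -2.70 ± 0.62 (SE, adjusted p = 0.0131, edgeR). It was also the 1 faller left when both libraries of replicate 3 were taken away (adjusted p = 0.0490, edgeR). Col27a1, a fibrillar gene with a shorter run of 217 triplets, had 0.21, 0.41 and 0.28 CPM in IP against 2.14, 1.03 and 1.86 CPM in Input. It stood at -2.46 ± 0.56 (SE, adjusted p = 0.0123, edgeR), and at an adjusted p of 0.0526 without Input replicate 3. In both genes the IP libraries lay wholly below the Input libraries.

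The other fibrillar genes varied between pools. Col2a1, the main fibre of cartilage, had 0.34, 0.20 and 0.89 CPM in IP against 4.58, 0.29 and 2.90 CPM in Input. Input replicate 2 thus lay inside the IP range, and the log2 fold change of -2.44 ± 0.95 (SE) did not pass (adjusted p = 0.0858, edgeR). With the replicate as a block it was -2.07 and passed (adjusted p = 0.0366, edgeR). Input replicate 2 was also the lowest Input library for Col11a1, at 0.29 CPM against 1.51 and 1.2, and for the untested Col3a1, at 0.07 CPM against 0.50 and 1.1, and Col5a2, at 0.15 CPM against 1.37 and 1.18. Col5a1 stood at -3.00 ± 1.33 (SE), with 6, 0 and 0 reads in IP against 27, 15 and 14 in Input, and did not pass. Type III and type V collagen chains, which Col3a1 and Col5a2 encode, are usual companions of type I fibres. Col5a3, at 0.51 CPM against 0.12 and 0.42, was highest in that library, and Col5a1 was lowest in Input replicate 3. The summed fibroblast markers without Pdgfra were 36.0, 18.1 and 28.5 CPM in Input replicates 1, 2 and 3. Whether the amount of meninges in a pool had a part in this was not tested.

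**Figure D2:**
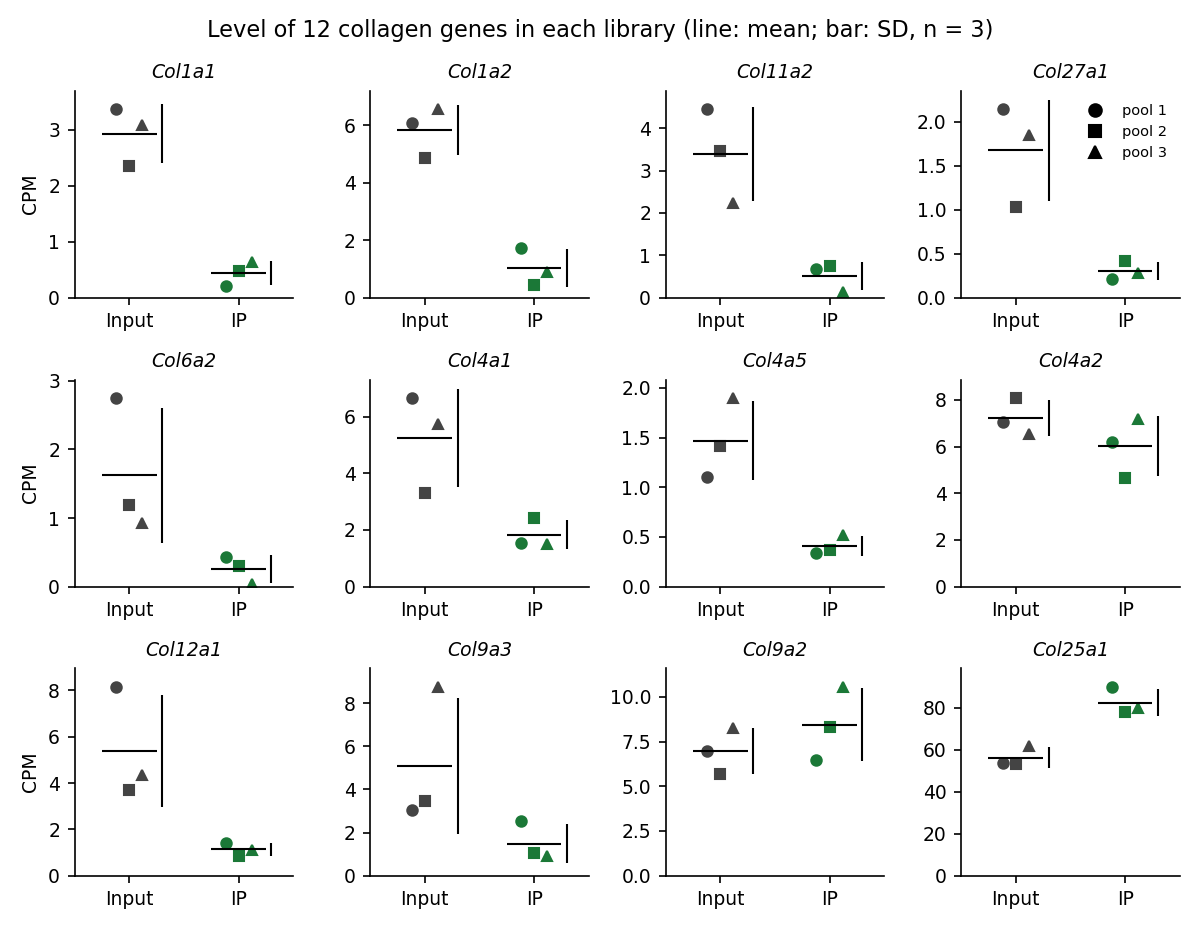
CPM of 12 collagen genes in each Input and IP library, with a symbol per pool, the mean as a line and the SD as a bar (n = 3 per group); each panel has its own axis from 0. IP lies below Input in the 9 genes that fell, overlaps it for Col4a2 and Col9a2, and lies above it for Col25a1, at 77.8 to 89.7 against 53.1 to 61.8 CPM.

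Type VI collagen, which forms beaded filaments around cells, was low, and 1 of its 5 tested genes fell, near the 17.1% of all genes. Col6a1 had 0.64, 0.30 and 0 CPM in IP against 4.83, 1.29 and 1.47 CPM in Input, with 30, 14 and 0 reads in IP. The IP libraries lay below the Input libraries, at -3.00 ± 1.1 (SE, adjusted p = 0.0713, edgeR), and the gene passed with the replicate as a block (-3.34, adjusted p = 0.0113, edgeR). Col6a2, its neighbour on chromosome 10, had 0.43, 0.30 and 0.04 CPM in IP against 2.74, 1.19 and 0.93 CPM in Input. It fell by 2.65 ± 0.84 (SE, adjusted p = 0.0440, edgeR), and this call was lost without any 1 of the 6 libraries. Col6a3, which encodes the long alpha-3 chain, had 3.97, 0.63 and 0.24 CPM in IP against 2.63, 1.43 and 1.08 CPM in Input. Its highest value of all was in IP replicate 1, and the log2 fold change was -0.09 ± 0.90 (SE). Among the Input libraries, Col6a1, Col6a2, Col6a3 and Col6a4 were highest in replicate 1, as was Col12a1. Col6a5 and Col6a6 were highest in Input replicate 3. Col6a4 stood at -2.91 and Col6a5 at -0.73, both unpassed, and Col6a4 passed with the block (-3.48, adjusted p = 0.0477, edgeR). Col6a6 was too low to test.

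In the basement-membrane class 2 of 7 tested genes fell, where 17.1% of all genes did. Col4a1 and Col4a2 encode the chains of the type IV network found around every brain vessel and lie head to head on chromosome 8. In GENCODE M39 their canonical transcripts overlap at the 5′ ends, and the 316 bases between the start sites, of which 72.5% are G or C, lie within both. In the deposited table Col4a2 starts elsewhere, and the 2 spans overlap by 22 bases. Col4a1 (ENSMUSG00000031502, chromosome 8, 11248423 to 11362826, minus strand) had 1.56, 2.43 and 1.51 CPM in IP against 6.65, 3.31 and 5.74 CPM in Input. It fell by 1.51 ± 0.37 (SE), a 2.85-fold difference (adjusted p = 0.0165, edgeR). Col4a2 (chromosome 8, 11362805 to 11499287, plus strand) had 6.18, 4.66 and 7.19 CPM in IP against 7.07, 8.06 and 6.55 CPM in Input, and these groups overlapped. Its log2 fold change was -0.27 ± 0.24 (SE, adjusted p = 0.443, edgeR).

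On the length-scaled FPKM (fragment counts scaled by gene length and library size), Col4a1 stood at 0.22, 0.46 and 0.19 times the level of Col4a2 in IP replicates 1, 2 and 3 and at 0.83, 0.36 and 0.78 times in Input. The pair was singled out after its values were seen. IP and Input overlapped in pool 2, where the ratio was higher in IP. The mean log2 ratio differed by -1.21 between IP and Input, with p = 0.20 in a two-sided exact permutation test. The test took the libraries as unpaired, though IP and Input share pools, and cannot go below 0.10 with 3 against 3. A different response of the partners is therefore not shown. The Col4a1 call was lost without IP replicate 1, IP replicate 3 or Input replicate 3 (adjusted p = 0.0526, 0.0633 and 0.0669, edgeR).

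Col4a5, an X-linked type IV chain known from kidney and smooth-muscle basement membranes, had 0.34, 0.37 and 0.52 CPM in IP against 1.1, 1.41 and 1.89 CPM in Input. It fell by 1.83 ± 0.51 (SE, adjusted p = 0.0280, edgeR), with no overlap of the groups. Of the leave-outs of 1 library, the call was kept in 1, that of Input replicate 1, and the adjusted p went up to 0.123 in the others. It was 0.0335 with length and GC offsets and 0.0504 when the replicate block was added to these (edgeR). Its head-to-head partner Col4a6 was too low to test, with 2, 2 and 4 reads in IP against 28, 10 and 22 in Input. Col4a3 and Col4a4, also a head-to-head pair, stood at -1.48 ± 0.98 and -0.70 ± 0.999 (SE), neither of which passed. Of the multiplexins, which link basement membranes to their surroundings, Col15a1 stood at -1.66 ± 0.63 (SE, adjusted p = 0.0789, edgeR) with IP below Input in every library. Col18a1, the source of the fragment endostatin, had 0.87, 3.17 and 4.11 CPM in IP against 2.65, 2.37 and 3.03 CPM in Input, which overlapped (0.02 ± 0.52, SE). It overlaps Slc19a1 on the other strand, and the strand setting of the counting is not given in the sources used here.

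Fibril-associated collagens sit on the surface of fibres. Of 9 tested genes 2 fell, which is near the 17.1% of all genes, and 2 others stood at positive values. Col12a1, a chain found on type I fibres, had 1.43, 0.87 and 1.13 CPM in IP against 8.13, 3.69 and 4.33 CPM in Input. It fell by 2.24 ± 0.41 (SE), a 4.71-fold difference (adjusted p = 0.00498, edgeR), the smallest adjusted p among the collagen genes. Col9a3, a chain of type IX collagen, had 2.52, 1.04 and 0.91 CPM in IP against 3.05, 3.47 and 8.74 CPM in Input. It fell by 1.77 ± 0.56 (SE, adjusted p = 0.0427, edgeR). Without Input replicate 3, which held the most, it stood at -1.09 and did not pass (adjusted p = 0.198, edgeR), nor did it without IP replicate 2 or 3. Input replicate 3 was also the library with the highest choroid plexus markers, 483 CPM in sum against 71.7 and 62.8 CPM in the other Input libraries and 31.7 to 113 CPM in IP, and with the highest Col8a2 and Col9a1. Of 8 choroid plexus markers tested 1 fell (0 without IP replicate 2, IP replicate 3, Input replicate 1 or Input replicate 3, and 3 with the block). Folr1 was at 0 CPM in replicate 2 of both IP and Input. The part of choroid plexus in these values was not tested. Col9a3 also overlaps Tcfl5 on the other strand.

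Col9a2, whose product joins that of Col9a3 in the same molecule, was second to Col25a1 per length (FPKM) in both fractions, and it did not pass. It had 6.46, 8.31 and 10.5 CPM in IP against 6.97, 5.71 and 8.29 CPM in Input, at 0.27 ± 0.25 (SE, adjusted p = 0.463, edgeR). On the FPKM scale it stood at 3.20, 9.93 and 14.5 times the level of Col9a3 in IP and at 2.84, 2.05 and 1.18 times in Input. Those ranges did not overlap, and the two-sided exact permutation p, again with libraries taken as unpaired, was 0.10, the smallest that 3 against 3 allows. This permutation p was 0.20 when adjusted over the 2 ratios tested, both chosen after their values were seen. The ratios Col6a1 over Col6a2 and Col1a1 over Col1a2 were also computed but not tested. The remaining type IX gene, Col9a1, stood at -2.77 ± 1.49 (SE), with 10, 0 and 0 reads in IP against 7, 16 and 55 in Input.

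Among the rest of this class, Col16a1 had 1.43, 1.39 and 1.25 CPM in IP against 1.80, 1.95 and 3.19 CPM in Input. IP lay below Input throughout, but the log2 fold change of -0.77 ± 0.39 (SE) did not pass (adjusted p = 0.169, edgeR). Col20a1 had the most positive log2 fold change of all tested collagen genes, with 0.70, 1.95 and 2.02 CPM in IP against 0.27, 0.86 and 1.2 CPM in Input. It was higher in IP in 3 of 3 pools, yet the groups overlapped and the log2 fold change of 1.0 ± 0.66 (SE) did not pass (adjusted p = 0.295, edgeR). Col14a1 and Col22a1 stood at -0.17 and -0.49, and Col14a1 at 0.60 with the replicate as a block.

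Col19a1 is known from interneurons, where its product acts in the formation of synapses. It had 0.60, 0.04 and 0 CPM in IP replicates 1, 2 and 3 against 1.72, 0.33 and 0.21 CPM in Input, or 28, 2 and 0 reads against 89, 18 and 11. Most of its reads came from pool 1 in both fractions, and it was lower in IP in each pool. The groups overlapped, and the log2 fold change was -1.81 ± 1.42 (SE, adjusted p = 0.378, edgeR), which is no call. It ran from -4.99 without IP replicate 1 to -0.34 without Input replicate 1. With the replicate as a block it stood at -2.68 and did not pass either (adjusted p = 0.0888, edgeR).

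Col25a1 rose, and it was the most abundant collagen gene in every library. The gene (ENSMUSG00000058897, chromosome 3, 129925150 to 130393526, plus strand, mm39) encodes a membrane-spanning collagen of neurons whose shed part was found in amyloid plaques. It had 89.7, 77.8 and 79.8 CPM in IP replicates 1, 2 and 3 against 53.7, 53.1 and 61.8 CPM in Input, from 2779 to 4208 reads per library. Every IP library lay above every Input library, and IP was higher in each pool. It stood at 0.55 ± 0.13 on the log2 scale (SE), 1.47-fold higher in IP (adjusted p = 0.0143, edgeR). Leaving out 1 library at a time gave 0.49 to 0.67, with an adjusted p of 0.0596 without IP replicate 1. The size is near the median of 0.42 of the pan-neuronal genes tested, and a rise beyond those was not tested. A test against a fold change of 1.5 did not call it. The processed pseudogene Gm9397 lies within the gene on the same strand.

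The other membrane-spanning collagens did not pass. Col23a1 had 7.48, 1.52 and 1.81 CPM in IP against 5.14, 2.88 and 3.54 CPM in Input, with pool 1 highest in both fractions, and stood at -0.10 ± 0.60 (SE). Col17a1, of the skin's anchoring complex, stood at -0.31 ± 0.78 (SE), and Col13a1 had 2 to 8 reads per library and was not tested. Of the remaining genes, Col26a1 had 2.71, 4.45 and 3.06 CPM in IP against 3.09, 3.82 and 4.00 CPM in Input (-0.10 ± 0.30, SE). Col8a1, a short-chain collagen of vessel walls and the cornea, had 0.43, 1.19 and 1.17 CPM in IP against 1.37, 2.24 and 3.19 CPM in Input. Its groups did not overlap, and it stood at -1.28 ± 0.54 (SE, adjusted p = 0.106, edgeR). Its partner Col8a2 had 0.58, 1.24 and 0.26 CPM in IP against 0.64, 0.33 and 3.09 CPM in Input, at -0.97 ± 0.91 (SE).

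The 10 genes without a test were Col3a1, Col4a6, Col5a2, Col5a3, Col6a6, Col7a1, Col10a1, Col13a1, Col24a1 and Col28a1. Col3a1 had 4, 0 and 9 reads in IP against 26, 4 and 57 in Input, and Col5a2 had 6, 0 and 6 against 71, 8 and 61. Both were lower in IP in each pool, and Col5a2 is among the genes that the authors' deposited table calls lower (-3.40, adjusted p = 0.0142 there). Col5a3 had 9, 8 and 0 reads in IP against 6, 28 and 22 in Input, Col24a1 0, 10 and 6 against 0, 0 and 1, and Col6a6 2, 5 and 6 against 0, 0 and 5. Col28a1 had at most 10 reads in a library. These 4 did not share a direction. Col7a1, the anchoring fibril of skin, had 4 reads in IP replicate 1 and 0 elsewhere, and Col10a1, of growth cartilage, at most 6. A count of 3 corresponds to between 0.055 and 0.065 CPM in these libraries, and several of the values given here rest on fewer reads than that.

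By the authors' FPKM, which allow genes to be compared per length, the order in Input was Col25a1 at 4.23 ± 0.39 (SD, n = 3), Col9a2 at 2.22 ± 0.41, Col9a3 at 1.30 ± 0.82, Col4a2 at 1.07 ± 0.12, Col4a1 at 0.69 ± 0.22 and Col23a1 at 0.66 ± 0.19. The library ranges of Col25a1 and Col9a2 did not overlap, nor did those of Col4a2 and Col4a1, while the other neighbours in this order overlapped. The type I chains Col1a2 and Col1a1 stood at 0.46 ± 0.07 and 0.44 ± 0.07 FPKM in Input. In IP the order began with Col25a1 at 6.32 ± 0.45 FPKM, Col9a2 at 2.73 ± 0.68 and Col4a2 at 0.91 ± 0.19. Col1a2 and Col1a1 were then at 0.08 ± 0.05 and 0.07 ± 0.03 FPKM.

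The make-up of the collagen RNA differed between the fractions in the share of Col25a1 and of the fibrillar class. Col25a1 made up 47.2%, 44.9% and 43.8% of the summed collagen FPKM in IP replicates 1, 2 and 3 and 23.6%, 29.3% and 24.8% in Input. Fibrillar genes together made up 2.72%, 2.66% and 2.67% in IP and 15.5%, 10.9% and 11.5% in Input. Neither pair of ranges overlapped, and no test was made on these sums. Without Col25a1 the other 43 genes summed to 7.66, 7.35 and 7.91 FPKM in IP and to 12.9, 9.70 and 14.2 FPKM in Input. The sum over all 44 was 13.3 to 14.5 FPKM in IP and 13.7 to 18.9 FPKM in Input, and these ranges overlapped.

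**Figure D3:**
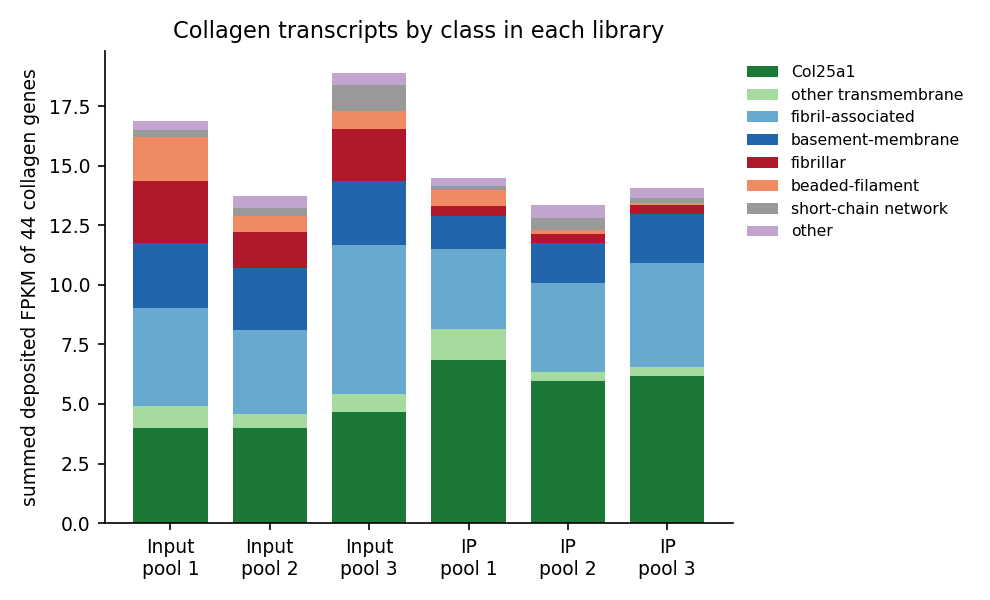
Summed deposited FPKM of the 44 collagen genes in each library, stacked by class with Col25a1 apart. Col25a1 takes 5.98 to 6.83 FPKM in the IP libraries and 3.99 to 4.68 in the Input libraries, and the fibrillar layer 0.35 to 0.39 against 1.5 to 2.61.

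The classes, which follow the known collagen types, also differ in gene structure. Fibrillar genes had a median of 29 coding exons of exactly 54 bases, fibril-associated genes 14 and basement-membrane genes 2. In Col1a1, 86.3% of the 51 coding exons had a length that is a multiple of 9 bases, so that they hold whole triplets, against 38.5% of 52 in Col4a1 and 75.7% of 37 in Col25a1. The 3 type IX genes shared a longest run of 113 triplets while standing at -2.77, 0.27 and -1.77 on the log2 scale. Genes with runs of at most 66 triplets covered nearly the whole range of fold changes, from -2.91 for Col6a4 to 1.0 for Col20a1. The tested fibrillar genes had runs of 217 triplets or more and stood at -2.01 or below. Of these 7 genes, 4 passed the count filter in all 3 Input but not all 3 IP libraries. The untested fibrillar gene Col24a1, with a run of 216 triplets, had 0, 10 and 6 reads in IP against 0, 0 and 1 in Input. Collagen transcripts were long, with a median gene length of 7542 bases against 3788 over all tested genes, and somewhat rich in G and C, at 54.7% against 49.3%. With offsets for length and GC content the same number, 9, fell and 1 rose, and the median was -1.40.

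**Figure D4:**
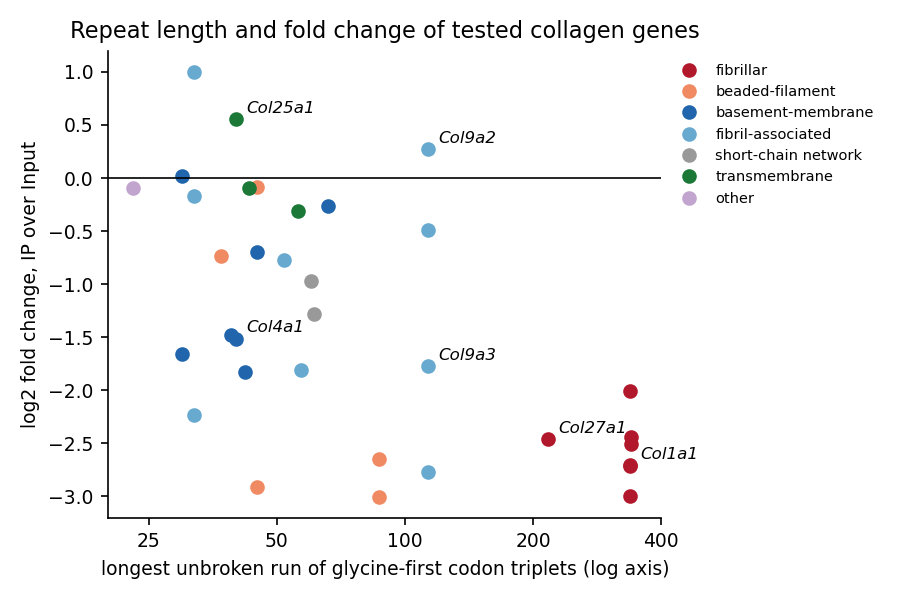
Longest unbroken run of glycine-first codon triplets (log axis) against the log2 fold change, IP over Input, of the 34 tested collagen genes, coloured by class. The fibrillar genes lie at 217 triplets or more and at -2.01 or below, and the other classes spread from -3.00 to 1.0 at shorter runs.

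The upstream regions of the fibrillar gene Col1a1 and of Col25a1 are shown because the former fell and kept its call without any 1 library, and the latter is the gene that rose. Both are 250 bases long and end just before the start of the canonical transcript (GRCm39), with CCAAT and GGGCGG, on either strand, in capitals. The Col25a1 window lies inside the span of the deposited gene, which starts further upstream than this transcript.
Col1a1, chr11:94826800-94827049, plus strand: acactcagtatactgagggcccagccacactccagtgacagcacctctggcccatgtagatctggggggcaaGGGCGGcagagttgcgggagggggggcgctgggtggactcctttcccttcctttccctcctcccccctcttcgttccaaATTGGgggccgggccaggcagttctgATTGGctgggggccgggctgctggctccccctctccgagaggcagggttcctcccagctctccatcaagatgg
Col25a1, chr3:129974290-129974539, plus strand: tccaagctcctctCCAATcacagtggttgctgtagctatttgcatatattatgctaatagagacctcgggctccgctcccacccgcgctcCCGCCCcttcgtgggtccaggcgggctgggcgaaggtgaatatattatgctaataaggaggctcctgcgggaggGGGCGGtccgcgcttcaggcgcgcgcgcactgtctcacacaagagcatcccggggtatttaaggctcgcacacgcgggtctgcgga
Both windows hold each motif and neither window holds TATAAA. Bases from the annotated start onward were not searched. Among the 250 bases upstream of 21770 protein-coding genes, 36.5% held CCAAT, 36.3% GGGCGG and 11.9% TATAAA. Of the 44 collagen genes 15, 21 and 7 did. These are letter matches and describe the windows only.

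Lists of genes that make, process, bind and break down collagen were set beside the collagen genes, with the 17.1% of all tested genes that fell as the level to read each count against. Of 19 tested enzymes and chaperones that modify the chains in the endoplasmic reticulum 5 fell and 0 rose (by edgeR), a share not far from that level, with a median log2 fold change of -0.46 against -0.07 over all genes. Plod1, a lysyl hydroxylase, had 5.01, 6.55 and 3.41 CPM in IP against 14.1, 19.1 and 16.2 CPM in Input and fell by 1.72 ± 0.27 (SE). Serpinh1, the collagen chaperone HSP47, had 3.30, 1.34 and 1.57 CPM in IP against 6.18, 8.60 and 9.10 CPM in Input and fell by 1.94 ± 0.39 (SE). P4hb, a subunit of prolyl hydroxylase that also serves other proteins, stood at 0.02 ± 0.13 (SE). Of 12 tested genes of procollagen processing and crosslinking 4 fell, with a median of -1.10. Among them Tll2, a tolloid-like proteinase gene, had 0.09, 0.07 and 0.20 CPM in IP against 3.55, 1.60 and 2.47 CPM in Input (-4.40 ± 0.63, SE), and Pcolce2, a procollagen proteinase enhancer gene, fell by 1.69 ± 0.31 (SE).

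Of 8 tested collagen receptors 5 fell, with a median of -1.08. Lair1, an inhibitory receptor of immune cells, fell by 1.71 ± 0.26 (SE) and Itgb1, the shared beta chain of the collagen-binding integrins, by 0.73 ± 0.13 (SE). Of 15 partners in the basement membrane 7 fell, with a median of -0.98. The laminin gene Lama2 fell by 3.44 ± 0.34 (SE), from 8.23, 5.18 and 9.68 CPM in Input to 0.79, 0.67 and 0.67 CPM in IP, and Sparc, which binds collagen and is abundant in glia, fell by 3.13 ± 0.33 (SE). Of 13 partners of fibrils 6 fell, with a median of -1.51, among them the proteoglycan genes Bgn at -3.38 ± 0.41 and Prelp at -2.68 ± 0.42 (SE).

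Of 9 collagen-degrading enzymes and their inhibitors 5 fell and 1 rose, with a median of -2.14. The inhibitor genes Timp4 and Timp3 fell by 2.40 ± 0.23 and 2.33 ± 0.28 (SE). Mmp9, a gelatinase gene, had 2.92, 2.84 and 1.65 CPM in IP against 1.12, 0.97 and 0.97 CPM in Input and rose by 1.27 ± 0.40 (SE, adjusted p = 0.0411, edgeR). With the block it missed the threshold (adjusted p = 0.0578, edgeR) and it did so too without any 1 library other than IP replicate 3. When 1 library was left out, the lower counts ran from 3 to 5 for modifying, processing, receptor and degrading genes, from 5 to 7 for basement-membrane partners and from 2 to 6 for fibril partners, where 2 was reached without Input replicate 3. That library also set the lowest counts in the other 5 lists, alone or with others. Without both libraries of replicate 3, 0 modifying genes, 0 receptors and 1 processing gene fell, against 4 basement-membrane partners, 2 fibril partners and 3 degrading genes or inhibitors, by edgeR. With the block 6 processing genes and 8 fibril partners fell. Glial markers fell in nearly all cases, 10 of 10 for astrocytes, 9 of 9 for oligodendrocytes, 6 of 7 for their precursors and 9 of 9 for microglia, and 3 of 7 ependymal markers did, or 1 to 2 without any 1 library.

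**Figure D5:**
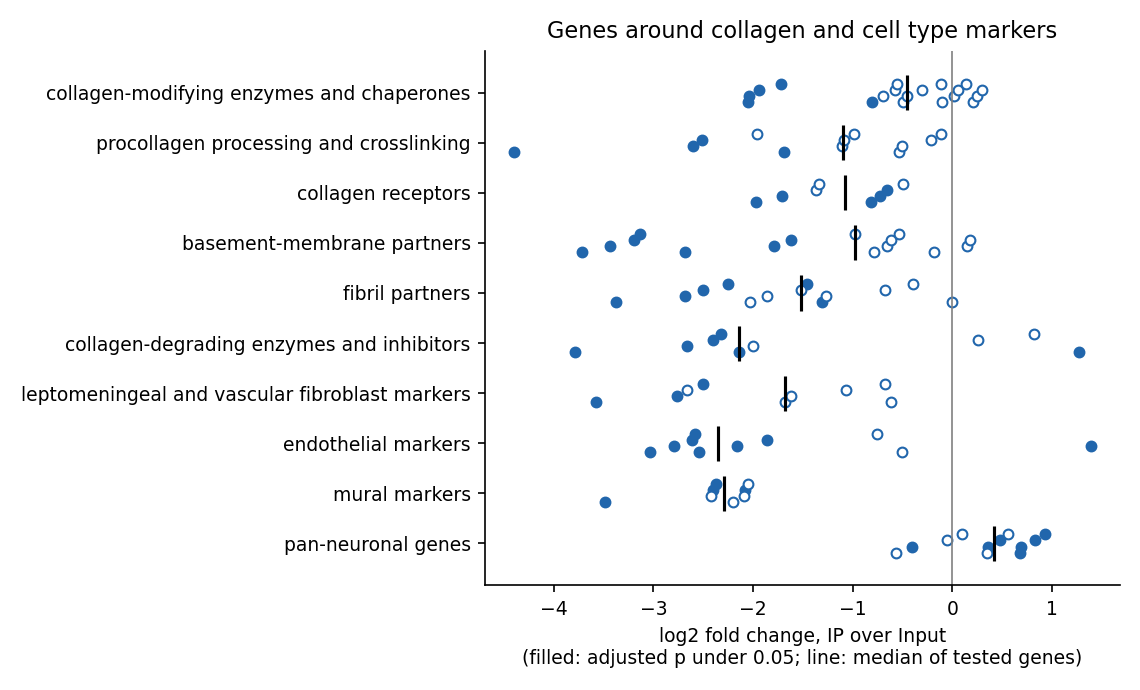
Log2 fold change, IP over Input, of each tested gene in 6 lists of genes around collagen and 4 lists of cell type markers; filled points passed at an adjusted p under 0.05 and the line is the list's median. Medians run from -2.35 for endothelial markers to 0.42 for pan-neuronal genes.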

How the data were processed

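RNA of 3 IP and 3 Input libraries was compared. Per the submitters' processing notes, the tools were HISAT2, featureCounts and DESeq2 and the build was mm39; versions, the strand setting and the annotation are not given in the sources used here. The deposited raw counts per gene entered the tests. The deposited normalized signal is the count divided by 1 size factor per library, and the deposited FPKM are scaled by the same factors and gene length (both checked, tolerance 1e-06). The log2 fold changes and p-values of the authors' deposited table are quoted only where named.

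The main test was edgeR 4.0.16 (R 4.3.3), quasi-likelihood, TMM scaling, filterByExpr, group only, Benjamini-Hochberg over 18640 genes, two-sided, threshold 0.05, tested on simulated data. CPM use TMM-scaled totals. The SE is the log2 fold change divided by the square root of F. Alternatives were DESeq2 1.42.0, other scalings and filters, a replicate block, length and GC offsets (splines of 4 degrees of freedom; GC known for 27577 genes in GENCODE M39), left-out libraries and a test against a 1.5-fold change. IP and Input of 1 number come from the same pooled tissue, as the series' design text gives Input from each sample, and are paired; their deviations correlated at 0.26, 0.14 and 0.10. Each library is a pool of 3 animals, so p-values measure the spread between pools. Reads carry no molecular identifiers.

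Members and lists were chosen with earlier results of these data known. Per-library values are given for members that were called, that averaged at least 1 CPM, or that are in the neuronal list (23 genes). In each list around collagen, the log2 fold change is given for the 2 smallest adjusted p in each direction, and per-library values for some of these. P4hb and the values of other members were added after they were seen. The gene Osbpl8, entered by mistake among the receptors, was left out. Ctage5, Gp6, Mmp8 and Mmp13 were not matched. Pdgfra, Cspg4, Dcn, Lum and Lama1 stand in more than 1 list.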

Additional observations from a re-analysis of the deposited data

How the results depend on the processing

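No alternative turned the sign of a called collagen gene, and of 179 values of the 10 called genes under alternatives 140 kept the call. The number of lower collagen genes, 9, stayed within 1.5 times under DESeq2 (13), RLE, upper-quartile or total scaling, other filters, the replicate block (12) and length and GC offsets without or with the block (9 and 10). It was 5 in a test against a fold change of 1.5, ran from 4 to 9 without 1 library, and was 7, 7 and 1 without both libraries of replicates 1, 2 and 3. The number of higher genes, 1, was 0 in the test against a fold change of 1.5, 0 or 1 without 1 library, and 0 without both libraries of any pool. The replicate block brought in Col2a1, Col6a1 and Col6a4, and added to the offsets it brought in Col2a1 and Col6a1 and ended the call of Col4a5 (adjusted p = 0.0504, edgeR). Of the 13 named genes not called, 2, Col2a1 and Col6a1, passed under an alternative. Signs turned for 10 uncalled genes, 6 of them named. Col18a1 stood at -0.090 with library totals, -0.20 with the block, and -0.045 and -0.29 with length and GC offsets without and with the block. With 1 library or 1 pool left out, Col18a1 ran from -0.40 to 0.44, Col23a1 from -1.2 to 0.28, Col26a1 from -0.33 to 0.051, Col4a2 from -0.48 to 0.011, Col6a3 from -1.97 to 0.43 and Col8a2 from -2.14 to 0.90. Of the others Col14a1 ran from -0.68 to 1.54 (0.60 with the block and 0.70 with offsets and block), Col17a1 from -0.78 to 0.35, Col22a1 from -1.63 to 0.68 and Col4a4 from -1.48 to 0.25; the cause was not tested. By CPM in place of FPKM, Col25a1 made up 66.1% and 41.4% of collagen in IP and Input.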
